A study of Arabidopsis thaliana with 12 samples.

Results

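The 9 GROWTH-REGULATING FACTOR genes of *Arabidopsis*, *GRF1* to *GRF9*, and the gene of their coactivator GRF-INTERACTING FACTOR 1 (*GIF1*, also called *AN3*) were followed through shoot regeneration from callus. Members were the loci of the L*er* expression table whose listed Col homolog is one of these 10 genes. Each gene had 1 locus, and each of these loci listed no other Col homolog, which gave 10 of the 27147 loci in the table. In the L*er* and Col annotations they are *GRF1* (ATLER-2G40590, AT2G22840), *GRF2* (ATLER-4G66900, AT4G37740), *GRF3* (ATLER-2G55810, AT2G36400), *GRF4* (ATLER-3G71910, AT3G52910), *GRF5* (ATLER-3G24650, AT3G13960), *GRF6* (ATLER-2G17210, AT2G06200), *GRF7* (ATLER-5G72470, AT5G53660), *GRF8* (ATLER-4G51370, AT4G24150), *GRF9* (ATLER-2G65900, AT2G45480) and *GIF1* (ATLER-5G40240, AT5G28640). RNA-seq libraries came from 4 groups of the accession L*er*, with 3 biological replicates in each. WT callus and *dme-2* callus were grown from excised true leaves kept for 7 days on callus-inducing medium (CIM, with the auxin 2,4-D and the cytokinin kinetin) in the dark. WT de novo shoots and *dme-2* de novo shoots were taken after 14 more days of culture, from such calli, on a medium that induces shoots (SIM, with indoleacetic acid and 2-isopentenyl adenine) under long days. The *dme-2* allele disrupts *DEMETER* (*DME*), a gene for a DNA glycosylase that removes 5-methylcytosine, and every *dme-2* sample carries the same allele. The comparisons ask how the transcript levels of the growth-regulating factors and their coactivator change from callus to shoot and whether they differ in the mutant. Callus and shoot differ in medium, light and age together, so these cannot be told apart in any comparison of the stages.

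GRF proteins are plant transcription factors with a QLQ domain, which binds GIF proteins, and a WRC domain, which binds DNA. GIF proteins do not bind DNA themselves and bring SWI/SNF chromatin remodelling complexes to GRF target genes. The GRF-GIF module keeps cells dividing in young leaves and meristems, and loss of *GIF1* gives narrow leaves with fewer cells. The microRNA miR396 cleaves the mRNA of most GRF genes and limits them as leaves mature. In crops such as wheat, a fusion of a GRF with a GIF raises the rate at which shoots regenerate in culture.

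Total counts were 12981250 to 20128757 in the 9 libraries whose counts were used, and no 2 libraries held the same values. Transcript levels below are TPM, an abundance that takes transcript length into account and sums to the same total in every library, which are the only values used for the *dme-2* calli. *DME* itself stood at 10.11 to 13.17 TPM in WT callus and 3.14 to 3.54 TPM in *dme-2* callus, and at 18.65 to 19.44 TPM in WT shoots and 7.49 to 7.89 TPM in *dme-2* shoots, so the mutant libraries lay below the WT libraries at both stages. The values do not show where along the gene the remaining reads lie. Of the 6 root and callus markers, 5 were called lower in WT shoots than in WT callus and 1, *SCR*, higher (edgeR). Of all loci tested, 38.4% were called lower and 43.4% higher. *LBD16*, *LBD29*, *PLT1* and *PLT2* stood at 46.18 to 67.93, 6.86 to 12.02, 0.86 to 4.72 and 0.51 to 2.67 TPM in WT callus and at 0.56 TPM or less in all 6 shoot libraries. With 6 counts or fewer over the WT shoot libraries, they passed the filter on low counts only through callus. They had to be lower in shoots, so their calls carry no weight. *WOX5* stood at 2.27 to 5.55 TPM in WT callus and 1.85 to 2.27 TPM in WT shoots, where the ranges met, and *SCR* at 4.31 to 8.06 and 16.86 to 18.04 TPM. The 4 leaf and shoot markers paired with a locus (*LHCB3*, *STM*, *AS1* and *YAB1*) were all called higher in WT shoots, and *STM* was listed at 0 in all WT callus libraries and at 8.87 to 9.55 TPM in WT shoots. *STM* and *YAB1*, with 0 and 1 counts over the WT callus libraries, passed the filter only through shoots and had to be higher there. *LHCB1.3* and *RBCS1A*, of the same list, were not analysed here. These are bulk tissues, so fewer cells of a type and less RNA per cell cannot be told apart in any value that follows.

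The miR396 pairing sites are shown first because they divide the family into members that carry one and members that do not. The mature 5p strands of both *Arabidopsis* miR396 genes are given 5′ to 3′ as RefSeq lists them on assembly TAIR10.1 (the Col-0 reference, not L*er*), with the seed, bases 2 to 8, in capitals. They share the seed and differ at position 21 only.
miR396a-5p: uUCCACAGcuuucuugaacug
miR396b-5p: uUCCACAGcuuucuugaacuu

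In the RefSeq mRNAs, 7 of the 9 GRF genes held a stretch of 22 bases that pairs with miR396a-5p with at most 2 miRNA bases unpaired and 1 extra base in the target, with G:U counted as unpaired. All 7 stretches lay in coding sequence, in exon 3 of *GRF1*, *GRF2*, *GRF3*, *GRF4* and *GRF8* and in exon 2 of *GRF7* and *GRF9*. Capitals mark the bases paired to miR396a-5p, and the lines below group the genes by identical sites, of which there were 4.
GRF1 (chromosome 2) and GRF2 (chromosome 4): tcGTTCAAGAAAGcCTGTGGAA
GRF3 (chromosome 2) and GRF4 (chromosome 3): CcGTTCAAGAAAGcCTGTGGAA
GRF7 (chromosome 5) and GRF8 (chromosome 4): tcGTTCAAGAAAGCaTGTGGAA
GRF9 (chromosome 2): acGTTCAAGAAAGCtTGTGGAA

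At the right end of each line, the partners of miRNA bases 1 to 7 were paired in all 7 genes. As aligned here, the extra base lies between the partners of bases 8 and 9 in *GRF1* to *GRF4* and between those of bases 7 and 8 in *GRF7* to *GRF9*. In *GRF1* to *GRF4* it stands beside an identical C, so placing it between the partners of bases 7 and 8 pairs equally well. In *GRF9* it stands beside an identical T, so its place is not fixed there either. The different places are thus a choice of the alignment. Within this limit, 0.0223% of the 31346 genes scanned held a site, and all of them were these GRF genes. The limit was chosen after the matches were seen. With 3 unpaired bases allowed, 0.118% of genes held a site. *GRF5* on chromosome 3, *GRF6* on chromosome 2 and *GIF1* on chromosome 5 had no site within either limit, nor did *GIF2* and *GIF3*. A pairing stretch is a description of the sequence and not a measured cleavage.

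In WT callus the GRF transcripts were few while *GIF1* was present. *GIF1* stood at 11.53, 20.44 and 15.05 TPM in the WT callus libraries, above every GRF in every library of both callus groups. *GRF1*, *GRF2*, *GRF3* and *GRF4*, the genes with the sites of the first 2 lines above, came next, with means of 0.893 ± 0.0862, 1.0 ± 0.455, 0.680 ± 0.226 and 0.480 ± 0.320 TPM (SD, n = 3), and each overlapped its neighbour in this order. *GRF8* and *GRF9* were at or below 0.16 TPM in every WT callus library. *GRF5* and *GRF7* had no count in any of the 3 WT callus libraries. *GRF6* had 2 counts in replicate 2 of WT callus, although its TPM was listed at 0 there. The summed GRF level was 2.13 to 3.98 TPM per WT callus library, or 0.209 ± 0.0755 TPM per TPM of *GIF1*.

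**Figure D1:**
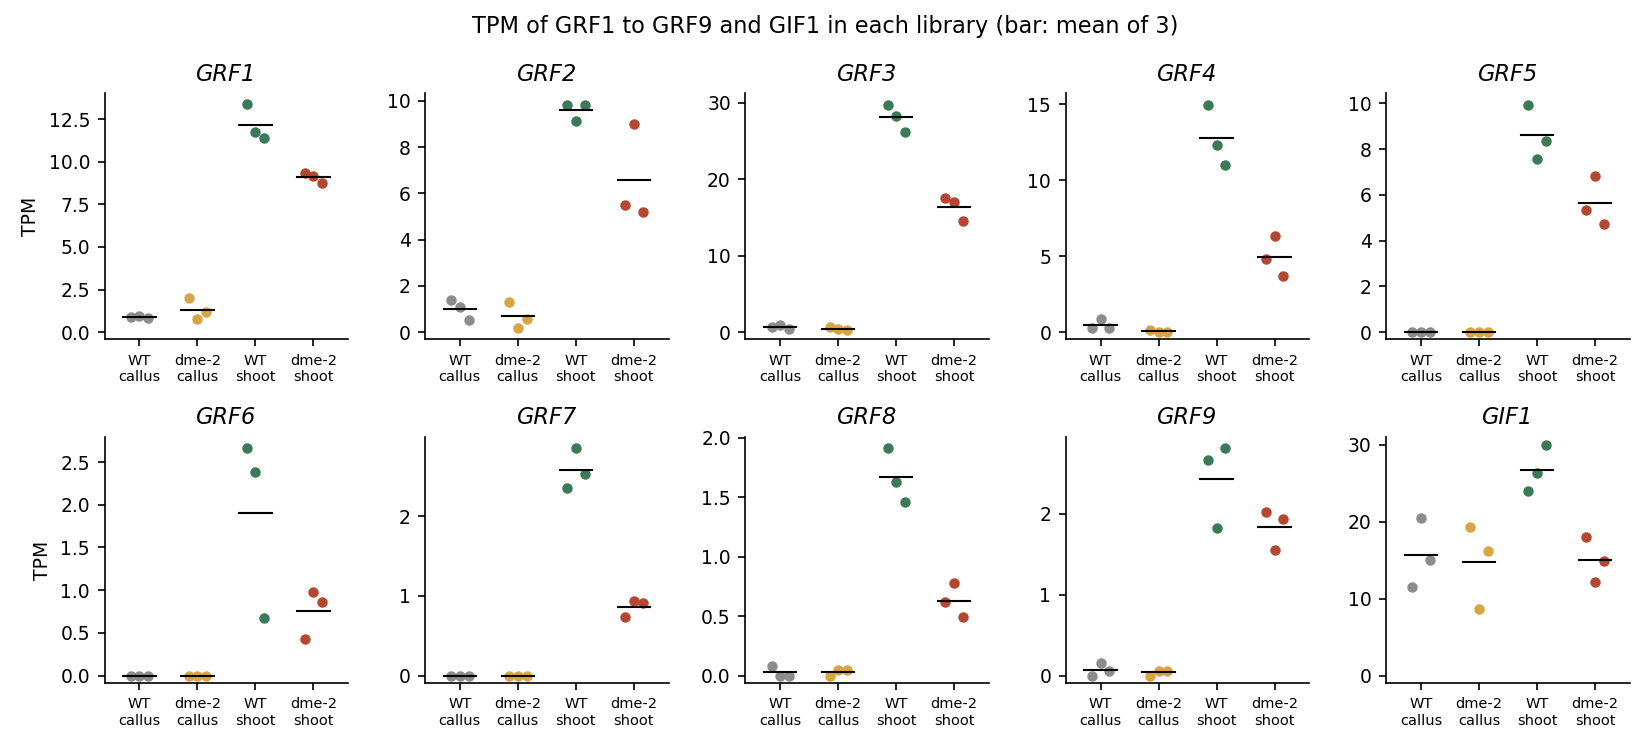
TPM of each of the 10 genes in each library (points, 3 per group, with a bar at the mean; every panel has its own linear axis). The GRF genes are near the bottom of their axes in both callus groups, and *GIF1* is at 8.66 to 20.44 TPM there. In shoots the *dme-2* points of *GRF1*, *GRF2*, *GRF3*, *GRF4*, *GRF5*, *GRF7*, *GRF8* and *GIF1* lie below all WT points, while those of *GRF6* and *GRF9* overlap with WT.

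All 9 GRF transcripts rose from WT callus to WT de novo shoots, and *GIF1* did not pass the test. The comparison used edgeR's quasi-likelihood test on the counts, with Benjamini-Hochberg adjusted p under 0.05 over 19616 loci. Of those loci, 43.4% were higher in shoots and 38.4% were lower, so a rise by itself was common. The split depended on the scaling, with 8514 loci higher and 7541 lower after TMM and 11152 higher and 5282 lower with library size alone, under which the median of all loci moved from 0.14 to 0.68 (log2). *GRF4*, *GRF5*, *GRF6*, *GRF7*, *GRF8* and *GRF9* passed the filter on low counts only through the shoot libraries and had to be higher there, so their calls carry no weight as a group. *GRF1*, *GRF2* and *GRF3* passed it in both groups.

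*GRF3* became the most abundant GRF. It stood at 0.65, 0.92 and 0.47 TPM in WT callus and at 29.73, 28.31 and 26.23 TPM in WT shoots, a log2 fold change of 4.92 ± 0.15 (SE, adjusted p = 1.26e-08, edgeR). *GRF1*, which acts with *GRF2* and *GRF3* in leaf expansion, stood at 13.38, 11.76 and 11.42 TPM in WT shoots, a log2 fold change of 3.0 ± 0.16 (adjusted p = 2.82e-07, edgeR). *GRF2* reached 9.83, 9.15 and 9.84 TPM with a log2 fold change of 2.86 ± 0.27 (adjusted p = 1.03e-05, edgeR). No WT shoot library of these 3 genes overlapped a callus library.

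*GRF4*, which promotes cell proliferation in leaves, stood at 0.30, 0.85 and 0.29 TPM in WT callus and at 14.95, 12.29 and 10.98 TPM in WT shoots (log2 fold change 4.35 ± 0.34, adjusted p = 3.24e-06, edgeR). Without replicate 2 of WT callus, the highest of that group, this was 5.10. *GRF5*, which promotes leaf cell proliferation and chloroplast division, had 205, 155 and 202 counts in WT shoots against 0 in every WT callus library, at least 134-fold higher when 3 counts over the callus group are taken as the floor and libraries are scaled by TMM. *GRF7*, a repressor of the osmotic stress gene *DREB2A*, had 46, 47 and 39 counts in WT shoots against 0, at least 31.6-fold higher by the same floor. With no callus reads, the rises of *GRF5* and *GRF7* have a lower bound only.

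The remaining GRF genes were low in both tissues. *GRF6* had 68 counts over the WT shoot libraries and 2 over the WT callus libraries, a ratio of 24.4 with a 95% interval of 6.50 to 206 that covers counting error only. For *GRF8* the counts were 119 and 2, with a ratio of 42.7 (11.6 to 357). For *GRF9* they were 161 and 4, with a ratio of 28.9 (11.1 to 107). Replicate 2 of WT callus held all counts of *GRF6* and 3 of the 4 of *GRF9* in that group, and without it the log2 fold change of *GRF9* was 5.81 in place of 4.76 (edgeR). All 3 intervals spanned a wide range. These genes passed the filter on low counts only through the shoot libraries, so ratios above 1 carry no weight.

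*GIF1* behaved differently from the GRF genes, and its call depended on the scaling. Its TPM in WT shoots was 23.96, 26.28 and 29.96, above all WT callus libraries, a ratio of means of 1.71. On TMM-scaled counts its log2 fold change was 0.11 ± 0.22 (adjusted p = 0.661, edgeR). With library size alone it was 0.65 (adjusted p = 0.0248, edgeR), and on log2(TPM + 1) it was 0.76 (adjusted p = 0.0106, limma), where the median of all loci was itself 0.58 higher in shoots. The rise of *GIF1* was therefore close to that of the typical locus under each scaling. The other GIF genes encode related coactivators that overlap with GIF1 in function. *GIF2* stood at 29.5 to 44.51 TPM in WT callus and 49.01 to 51.72 TPM in WT shoots (log2 fold change 0.10 ± 0.11, adjusted p = 0.419, edgeR). *GIF3* stood at 2.52 to 6.86 and 8.88 to 13.87 TPM and was called higher in shoots (log2 fold change 0.94 ± 0.33, adjusted p = 0.0261, edgeR).

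As a result the summed GRF level rose far more than *GIF1*. It was 74.3 to 87.4 TPM per WT shoot library, with a ratio of group means of 25.3 to WT callus, and stood at 3.03 ± 0.588 TPM per TPM of *GIF1* (SD, n = 3). *GRF3* made up 34.0% to 36.4% of the sum and *GRF4* 14.8% to 17.1%. *GRF1* made up 15.1% to 15.4%. In order of mean TPM in WT shoots, *GRF3* and *GIF1* overlapped each other and stood above the rest, *GRF4* overlapped *GRF1*, *GRF2* overlapped *GRF5*, and *GRF7*, *GRF9*, *GRF6* and *GRF8* followed at 2.58 ± 0.253 TPM or less, each overlapping the next. GRF genes with a miR396 pairing site supplied 85.6% to 87.9% of the sum.

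**Figure D2:**
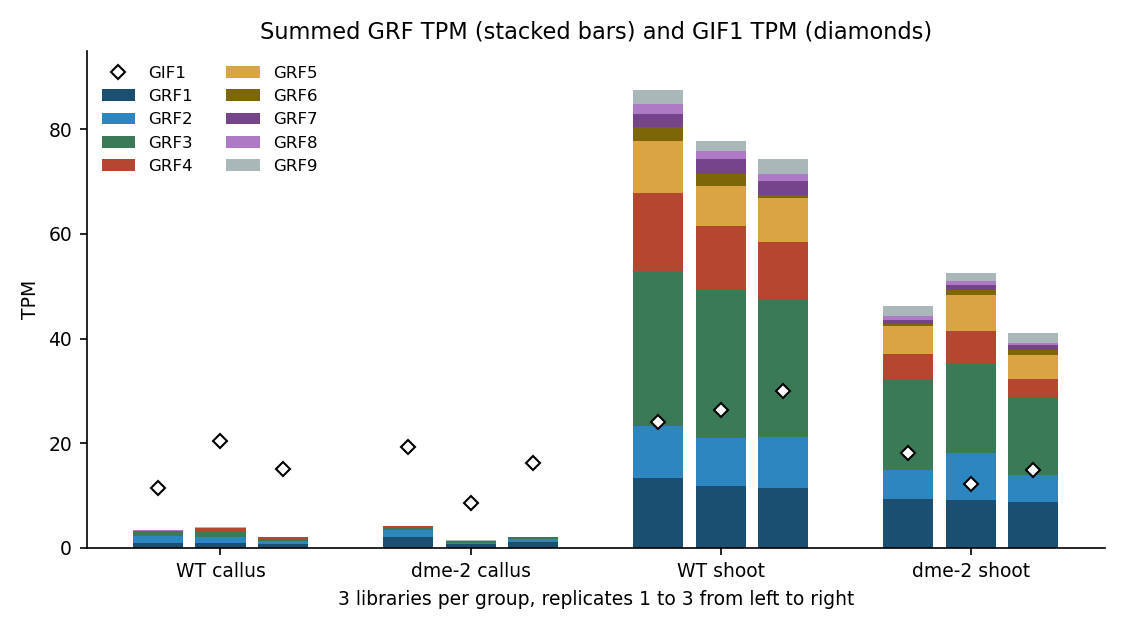
Summed TPM of *GRF1* to *GRF9* in each of the 12 libraries (stacked bars from 0, coloured by gene) and TPM of *GIF1* in the same library (diamonds). The GRF sum is below *GIF1* in all 6 callus libraries and above it in all 6 shoot libraries, at 74.3 to 87.4 TPM in WT and 41.1 to 52.6 TPM in *dme-2* shoots.

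In *dme-2* de novo shoots 9 of the 10 transcripts were lower than in WT shoots, and *GRF9* did not pass the test. Over the 19114 loci tested with edgeR, 26.1% were lower in *dme-2* shoots and 26.7% higher. The median log2 fold change of the 10 genes was -0.80, beside 0.00 over all loci tested. *GRF6* passed the filter on low counts only through the WT libraries and so had to be lower, and the other 9 genes passed it in both groups. The sum of the 9 GRF levels was 41.1 to 52.6 TPM per library, and its mean was 41.5% lower than in WT shoots.

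The falls were of unequal size. *GRF4* fell most among the well-covered genes, with 4.79, 6.31 and 3.67 TPM in *dme-2* shoots, all below the WT libraries. Its counts were 257, 208 and 211 in WT and 97, 94 and 66 in *dme-2* shoots (log2 fold change -1.48 ± 0.15, 35.9% of the WT level, adjusted p = 1.41e-08, edgeR). *GRF3*, with the same pairing site as *GRF4*, stood at 17.48, 17.01 and 14.58 TPM in *dme-2* shoots (log2 fold change -0.66 ± 0.07, 63.1% of the WT level, adjusted p = 5.63e-08, edgeR). The difference between the falls of these 2 genes was not tested, nor was any part of the pairing site in them.

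*GRF1* stood at 9.32, 9.17 and 8.76 TPM in *dme-2* shoots, each below the lowest WT library (log2 fold change -0.42 ± 0.09, adjusted p = 5.23e-04, edgeR). *GRF2* stood at 5.50, 9.02 and 5.21 TPM, with replicate 2 close to the WT libraries (log2 fold change -0.62 ± 0.14, adjusted p = 6.81e-04, edgeR). Its call was lost when log2(TPM + 1) was tested in place of the counts (adjusted p = 0.0546, limma). *GRF5*, which has no pairing site, stood at 5.35, 6.85 and 4.72 TPM against 9.94, 7.56 and 8.34 TPM in WT (log2 fold change -0.63 ± 0.14, adjusted p = 5.07e-04, edgeR).

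*GRF7*, *GRF8* and *GRF6* were low in both genotypes and were in *dme-2* at 29.4% to 39.0% of the WT level. *GRF7* had 46, 47 and 39 counts in WT and 12, 13 and 23 in *dme-2* shoots (log2 fold change -1.54 ± 0.30, adjusted p = 1.12e-04, edgeR). For *GRF8* the counts were 44, 35 and 40 in WT and 18, 13 and 18 in *dme-2* (log2 fold change -1.36 ± 0.28, adjusted p = 2.46e-04, edgeR). *GRF6* rested on 31, 25 and 12 counts against 6, 7 and 8 (log2 fold change -1.77 ± 0.44, adjusted p = 0.00150, edgeR). In TPM the third WT library of *GRF6*, at 0.68, lay within the *dme-2* range of 0.43 to 0.98, and the call was lost on that scale (adjusted p = 0.141, limma).

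*GRF9* stood at 2.66, 1.83 and 2.81 TPM in WT and 2.02, 1.55 and 1.94 TPM in *dme-2* shoots, and these overlapped (log2 fold change -0.46 ± 0.22, adjusted p = 0.0857, edgeR). It rested on 28 to 63 counts per library, and its unadjusted p was 0.0493.

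*GIF1* was 52.0% of the WT level in *dme-2* shoots, and its paralogs were not lower by the test. Its TPM was 18.05, 12.17 and 14.94 in *dme-2* against 23.96, 26.28 and 29.96 in WT shoots, with no overlap. The counts were 303, 261 and 357 in WT and 214, 136 and 157 in *dme-2* (log2 fold change -0.94 ± 0.12, adjusted p = 2.17e-07, edgeR). *GIF2* stood at 41.65 to 56.53 TPM in *dme-2* shoots (log2 fold change -0.03 ± 0.08, adjusted p = 0.760, edgeR). *GIF3* stood at 10.39 to 14.37 TPM (log2 fold change 0.34 ± 0.15, adjusted p = 0.0575, edgeR). *GIF1* made up 27.6% to 32.3% of the summed GIF level in WT shoots and 17.8% to 22.0% in *dme-2* shoots.

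**Figure D3:**
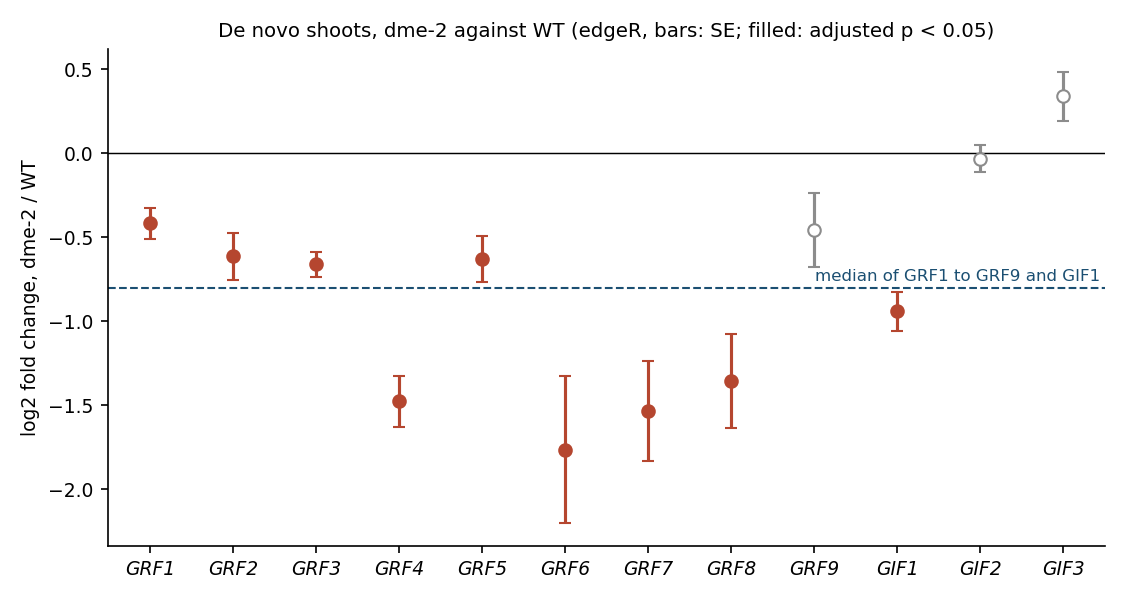
Log2 fold change of *dme-2* over WT de novo shoots for the 9 GRF and 3 GIF genes, from edgeR on counts (points, with bars of 1 standard error; filled where the adjusted p is under 0.05). *GRF4*, *GRF6*, *GRF7* and *GRF8* lie between -1.36 and -1.77, *GIF1* at -0.94, and *GIF2* and *GIF3* at -0.03 and 0.34; the dashed line is the median of the GRF genes and *GIF1*, -0.80.

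The make-up of the GRF pool shifted with the unequal falls. *GRF4* supplied 8.92% to 12% of the GRF sum in *dme-2* shoots, below its WT range, and *GRF1* supplied 17.4% to 21.3%, above its WT range. The share of *GRF3* was 32.3% to 37.8% and overlapped with WT. In the order of mean TPM, *GRF4* came next after *GIF1* in WT shoots, where it overlapped *GRF1*. In *dme-2* shoots it came behind *GRF1*, *GRF2* and *GRF5* and overlapped *GRF2* and *GRF5*. GRF genes with a pairing site supplied 85.1% to 87.5% of the sum, a range that overlapped with WT. Because *GIF1* and the GRF sum were both lower, the GRF sum per TPM of *GIF1* was 2.56 to 4.32 in *dme-2* and 2.48 to 3.65 in WT shoots.

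In callus no difference between genotypes was called for any member. The test on these libraries was limma on log2(TPM + 1) over loci averaging 1 TPM or more. Only *GRF1* and *GIF1* reached that mean, so 8 members were not tested. *GRF1* stood at 2.02, 0.77 and 1.19 TPM in *dme-2* callus and overlapped WT (difference 0.26 ± 0.28 on the log2 scale, adjusted p = 0.922, limma). *GIF1* stood at 19.32, 8.66 and 16.17 TPM and also overlapped WT (-0.12 ± 0.32, adjusted p = 0.976, limma). Neither had an unadjusted p under 0.05, and 0.141% of the 17029 loci tested were called in either direction. Among the untested genes *GRF4* had values of 0.13, 0 and 0 TPM in *dme-2* callus, below the 0.29 to 0.85 TPM of WT callus, at levels where depth is the limit. *GRF5*, *GRF6* and *GRF7* were listed at 0 in all 6 callus libraries. The summed GRF level in *dme-2* callus was 1.41 to 4.14 TPM.

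Between *dme-2* callus and *dme-2* shoots, *GRF1*, *GRF2*, *GRF3*, *GRF4* and *GRF5* rose, and *GIF1* did not pass the test. *GRF2*, *GRF3*, *GRF4* and *GRF5* averaged below 1 TPM in *dme-2* callus, entered the test only through the shoot libraries and had to be higher there, so their calls carry no weight. *GRF1* and *GIF1* averaged above 1 TPM in both groups. Of the 18729 loci tested with limma, 49.0% were higher in the shoots. That split was 9181 higher and 4452 lower on TPM as given and 6519 higher and 6504 lower after rescaling by the median ratio, which moved the median of all loci from 0.48 to 0.04 (log2). *GRF3* differed by 3.62 ± 0.17 (adjusted p = 2.53e-06, limma) and *GRF1* by 2.15 ± 0.21 (adjusted p = 9.79e-05, limma). These differences are on the log2(TPM + 1) scale and understate the change of low genes, and their order turns with the pseudocount. At a pseudocount of 0.1 *GRF5* and *GRF4* differed by 5.83 and 5.22 and *GRF3* by 5.05. *GIF1*, at 8.66 to 19.32 TPM in *dme-2* callus and 12.17 to 18.05 TPM in *dme-2* shoots, differed by 0.08 ± 0.29 (adjusted p = 0.810, limma). *GRF6*, *GRF7*, *GRF8* and *GRF9* had a mean under 1 TPM in these libraries and were not tested. The ratio of summed GRF levels between *dme-2* shoots and *dme-2* callus was 18.3.

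Whether the step from callus to shoot itself differed between the genotypes was tested as an interaction over all 12 libraries with limma. Of the 7 members tested none was called, and 10.9% of the 18813 loci tested were. For *GRF1*, *GRF3*, *GRF4* and *GRF5* the unadjusted p was under 0.05. Their interaction terms were -0.65 ± 0.24, -0.51 ± 0.21, -0.74 ± 0.28 and -0.54 ± 0.21 on the log2(TPM + 1) scale, with adjusted p of 0.123, 0.161, 0.128 and 0.126 (limma). The term of *GIF1* was -0.68 ± 0.39 (adjusted p = 0.301, limma). The negative sign means a smaller step in *dme-2* on this scale. *GRF5* was listed at 0 TPM in every callus library, so its term restates its genotype difference in shoots. *GRF3* and *GRF4* averaged below 1 TPM in both callus groups and entered the test only through the shoot libraries. Without replicate 2 of *dme-2* callus, which had the lowest *GIF1* level of that group, *GRF1* (-0.83, adjusted p = 0.0214, limma) and *GIF1* (-1.0, adjusted p = 0.0440, limma) were called. Calls over all loci rose as well in that fit. They were 1776 higher and 1693 lower of 18864 loci, against 1269 and 791 of 18813 with all libraries. The sign for *GRF4* depended on the pseudocount, and its term was 0.63 with a pseudocount of 0.1. A difference between genotypes that is seen in shoots and not in callus is therefore not shown to depend on the stage for these genes.

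Genes that act with or upstream of the GRF-GIF module were described from lists of known genes. CIN-type TCP factors promote the exit from proliferation in leaves, and TCP4 activates miR396 genes. All 5 were called higher in WT shoots than in WT callus, beside 43.4% of all loci. The largest rise was at *TCP4*, at 0.61 to 1.02 TPM in WT callus and 33.48 to 36.64 TPM in WT shoots (log2 fold change 4.76 ± 0.15, adjusted p = 1.38e-08, edgeR). In *dme-2* shoots 3 of the 5 were lower than in WT, beside the 26.1% of all loci. *TCP4* stood at 21.36 to 21.63 TPM there (log2 fold change -0.71 ± 0.07, adjusted p = 7.36e-09, edgeR). *TCP10* and *TCP2* had log2 fold changes of -0.55 ± 0.10 and -0.43 ± 0.07, and *TCP3* and *TCP24*, at -0.03 ± 0.07 and -0.04 ± 0.07, did not pass the test. These 3 TCP factors were thus lower in the libraries in which most GRF genes were lower, and a link between them was not tested.

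In the miRNA pathway, which makes and loads miR396, 4 of 6 genes were lower in *dme-2* shoots, beside the 26.1% of all loci. *HEN1*, which methylates the ends of miRNAs, had a log2 fold change of -0.63 ± 0.08 (adjusted p = 6.03e-07, edgeR). The processing partners *HYL1* and *SE* had values of -0.35 ± 0.10 and -0.19 ± 0.06, and the exportin *HST* of -0.18 ± 0.07. The *HYL1* libraries overlapped in TPM, at 8.42 to 11.15 in WT and 6.39 to 10.36 in *dme-2* shoots. *DCL1*, which cuts miRNA precursors, and *AGO1*, which carries miR396 to its targets, were at 0.04 ± 0.06 and 0.00 ± 0.05 and did not pass the test. The precursors of miR396 were not analysed here, and the level of the mature miRNA was not measured.

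Among 11 subunits of SWI/SNF chromatin remodelling complexes, the partners of GIF proteins, 2 were lower in *dme-2* shoots, 1 was higher and 8 did not pass the test. Over all loci tested, 26.1% were lower and 26.7% higher. *SWP73A* stood at 6.94, 8.46 and 8.64 TPM in WT and 5.62, 4.53 and 4.75 TPM in *dme-2* shoots (log2 fold change -0.59 ± 0.13, adjusted p = 5.38e-04, edgeR). *SWI3A* was lower by a log2 fold change of -0.45 ± 0.09 and *SWI3D* higher by 0.21 ± 0.07. The list median was -0.09, near that of all loci.

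Of 8 genes of mitosis and cytokinesis, the 5 that could be paired with a locus were called lower in *dme-2* shoots, where 26.1% of all loci were lower, with a median log2 fold change of -0.61 beside 0.00 over all loci. The largest falls were at *HINKEL*, a kinesin of the cell plate (-0.71 ± 0.08, adjusted p = 4.22e-08, edgeR), and *MAP65-3*, which bundles microtubules in the phragmoplast (-0.65 ± 0.09, adjusted p = 2.55e-06, edgeR). Whether the share of dividing cells in the tissue had a part in the GRF and *GIF1* values was not tested. Of 8 other regulators of organ growth, 3 were lower and 3 higher, beside 26.1% and 26.7% of all loci. *ANT*, which prolongs growth of organs, was at -0.37 ± 0.08 (adjusted p = 2.60e-04, edgeR) and the cyclin *CYCD3;2* at -0.36 ± 0.08. *KLU*, a cytochrome P450 that promotes organ growth, was at 0.39 ± 0.11 (adjusted p = 0.00367, edgeR). In TPM its libraries overlapped narrowly, at 7.04 to 8.95 in WT and 8.92 to 13.47 in *dme-2* shoots. *ARGOS* was called higher at 0.51 ± 0.17 in counts (adjusted p = 0.0136, edgeR), but the ratio of its mean TPM was 0.958 and its libraries overlapped.

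Of 5 genes reported elsewhere to be bound by GIF1 or a GRF, 2 were higher, 2 lower and 1 not called in *dme-2* shoots. Among all loci, 26.7% were higher and 26.1% lower. *DREB2A*, which GRF7 represses, was higher with a log2 fold change of 0.94 ± 0.07 (adjusted p = 5.37e-11, edgeR). Whether its level was related to that of *GRF7* was not tested. The cytokinin response regulator *ARR4* was also higher (0.36 ± 0.06). *CRF2* and *COL5* were lower (-0.31 ± 0.09 and -0.20 ± 0.05), and *HEC1* at 0.34 ± 0.15 did not pass the test (adjusted p = 0.0588, edgeR). The *CRF2* libraries overlapped in TPM, at 17.88 to 20.6 in WT and 16.13 to 18.08 in *dme-2* shoots. The list had no common direction.

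**Figure D4:**
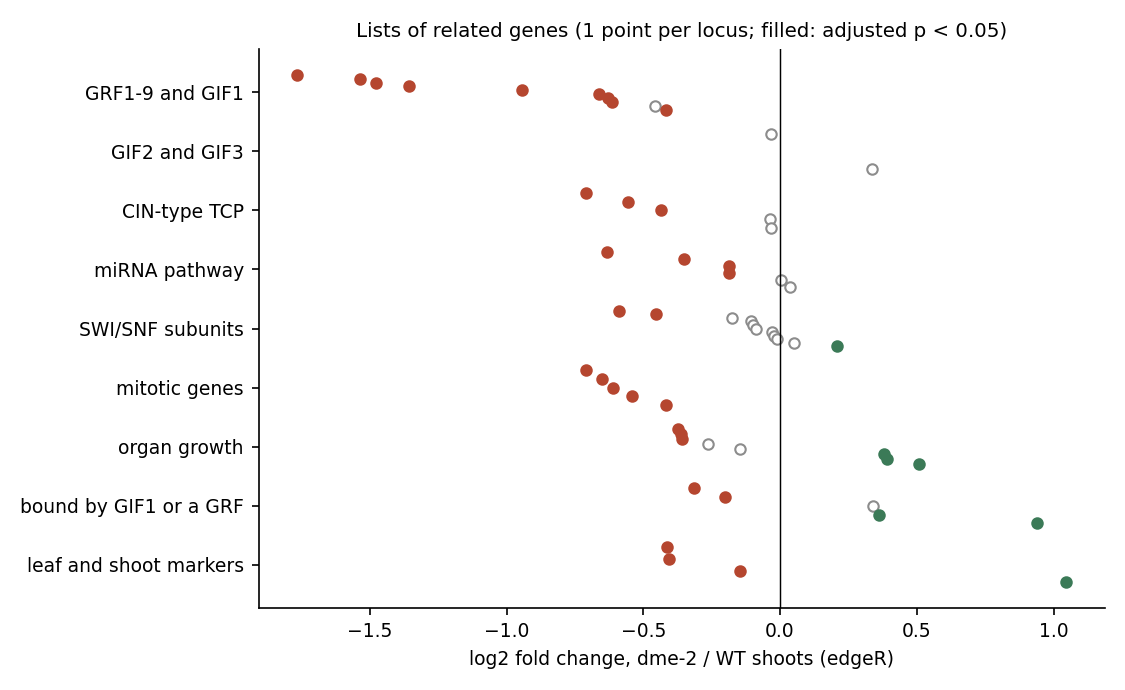
Log2 fold change of *dme-2* over WT de novo shoots for each gene of the lists, from edgeR on counts (1 point per locus; red and green fill, called lower and higher at an adjusted p under 0.05; open, not called). All called GRF genes and *GIF1* are on the left of 0, as are the 5 mitotic genes, while the bound genes lie on both sides between -0.31 and 0.94.

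Markers of shoot and leaf tissue moved with the genotype in shoots too. *STM*, the meristem gene, stood at 17.39 to 21.41 TPM in *dme-2* against 8.87 to 9.55 TPM in WT shoots (log2 fold change 1.05 ± 0.10, adjusted p = 4.17e-09, edgeR). The leaf genes *AS1* and *YAB1* were lower, at -0.41 ± 0.06 (adjusted p = 9.01e-06, edgeR) and -0.42 ± 0.09 (adjusted p = 4.54e-04, edgeR). The light-harvesting gene *LHCB3* stood at 3010.96 to 3189.83 TPM in *dme-2* and 3377.89 to 3549.14 TPM in WT shoots (log2 fold change -0.15 ± 0.04, adjusted p = 0.00630, edgeR). Of the 6 leaf and shoot markers, the 4 that could be paired were called, 1 higher and 3 lower, beside 26.7% and 26.1% of all loci. Of the 6 root and callus markers, 2 were tested in shoots and both were lower, *WOX5* at -1.58 ± 0.46 and *SCR* at -0.31 ± 0.08. *WOX5*, with 4, 9 and 4 counts in *dme-2* shoots, passed the filter on low counts only through the WT libraries and so had to be lower. The part that a different mix of meristem and leaf tissue had in the GRF and *GIF1* values was not tested.

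Across the 12 libraries the loci whose log2(TPM + 1) followed that of *GIF1* most closely, by Pearson's r over 18813 loci, were not GRF genes. They were a locus that lists 3 Col homologs (AT5G08670, AT5G08680 and AT5G08690, so its identity is uncertain; r = 0.91), *KMD3* (0.89), *MSD1* (0.89), AT1G01840 (0.88) and AT5G67390 (0.87). *KMD3* encodes an F-box protein and *MSD1* a mitochondrial superoxide dismutase. The 6 GRF genes averaging 1 TPM or more had r of 0.51 to 0.62 with *GIF1*. All points share the same 12 libraries in 4 groups, and these values are descriptions.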

How the data were processed

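Leaf-derived calli and de novo shoots of L*er* WT and *dme-2* were profiled by stranded mRNA-seq. The authors used STAR (v2.7.10a) for mapping to a L*er* assembly and RSEM (v1.3.1) for transcript abundance. The deposited counts are whole, unnormalized read counts per locus, and the step that made them, including its use of strand, is not given in the sources used here. The deposited TPM values were computed by the authors and are scaled for length and library total, so they hold no depth. Precision was set by total counts of 12981250 to 20128757 per library. Intervals cover counting error only.

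Counts were tested with edgeR (v4.0.16) quasi-likelihood, TMM and filterByExpr, for WT shoots against WT callus and for *dme-2* against WT shoots. The count columns labelled as *dme-2* callus disagree with the TPM columns of the same labels and were not used, so comparisons with those libraries used limma (v3.58.1) on log2(TPM + 1), and loci averaging below 1 TPM were left out. Benjamini-Hochberg adjustment was over all loci tested, at 0.05. Standard errors of edgeR values are the log2 fold change divided by the square root of F. DESeq2 (v1.42.0) and other scalings, filters, pseudocounts, left-out libraries and a replicate block were alternatives. The scripts were tested on simulated data.

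Groups came from the sample titles, with 3 libraries each, described as biological replicates. The 10 members and the gene lists were chosen with earlier results of these data known. Named were all members, all genes of lists of up to 6, the 2 largest called rises and falls of longer lists, and the 5 loci most alike to *GIF1*. Gene names follow the Col homolog listed per locus. Sequences are from the RefSeq annotation of TAIR10.1, a different assembly from that of the files, so no coordinates are given.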

Additional observations from a re-analysis of the deposited data

Results flagged for a closer look

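Of the 51 genes of the lists described above that could be tested, 3 (5.88%) were called in the limma interaction of genotype and stage, beside 10.9% of all loci. *SWP73A*, a SWI/SNF subunit, had an interaction term of -0.80 ± 0.22 on the log2(TPM + 1) scale (adjusted p = 0.0442), and *TCP4* had one of -0.67 ± 0.19 (adjusted p = 0.0433). For *STM* the term was 0.96 ± 0.16 (adjusted p = 0.00360). *STM* was listed at 0 TPM in every WT callus library and at 0.06 TPM or less in *dme-2* callus. Its term therefore restates its genotype difference in shoots. *TCP4*, with means of 0.857 and 0.87 TPM in WT and *dme-2* callus, also entered the test only through the shoot libraries.

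The count columns labelled as *dme-2* callus, which no comparison uses, held more counts than all 3 WT callus libraries at 9 of the 10 members. For *GIF1* they held 2488, 2212 and 2475 counts, against 106, 314 and 213 in WT callus, while the TPM columns of the same labels gave 8.66 to 19.32 TPM against 11.53 to 20.44 TPM. *GRF7* was the exception, with 0, 0 and 2 counts. What these count columns hold was not tested.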

How the results depend on the processing

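The number of members called in *dme-2* against WT shoots was 9 and became 4 with the cut-off of the study (log2 fold change beyond 1 and unadjusted p under 0.05), which leaves out the smaller falls by its construction. Without the filter on low values, 9 members were called between *dme-2* callus and *dme-2* shoots in place of 5, and 2 were called in the interaction in place of 0 (*GRF7*, adjusted p = 4.17e-04, and *GRF8*, adjusted p = 0.00461, limma), since more members were then tested. In callus *GRF7* was listed at 0 TPM in every library and *GRF8* at 0.08 TPM or less, so these 2 terms largely restate the shoot difference. Over all loci, the fits without this filter called 9837 higher and 4767 lower of 22612 between *dme-2* callus and *dme-2* shoots. In the interaction they called 1293 higher and 850 lower of 23244. Leaving out libraries gave 9 members called in every case in both count comparisons and 0 in the callus comparison. It gave 5 to 6 between *dme-2* callus and *dme-2* shoots, where 7940 of 18619 to 9846 of 18734 loci were higher. In the interaction it gave 0 to 2 members, with 2 only without replicate 2 of *dme-2* callus. Calls over all loci rose there too, to 1776 higher and 1693 lower of 18864. The cause was not tested. The callus comparison called 0 members under every alternative run. Apart from the changed calls of *GIF1*, *GRF1*, *GRF2* and *GRF6* given above, 428 values of single genes under alternatives kept their side of the threshold, and no call changed direction. CPM computed from the counts in place of TPM left the mean of all 10 members higher in WT shoots than in WT callus and lower in *dme-2* than in WT shoots. Same-numbered replicates did not deviate together (r of their deviations -0.40 to 0.01), so the numbers were not taken as pairs. With replicate number as a block, 9, 9, 0, 5 and 0 members were called in the 5 comparisons in the order given in the report, as without it. Depth limits *GRF6*, *GRF7*, *GRF8* and *GRF9*, with 63 counts or fewer in any library.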
